A study of Mus musculus with 32 samples.

Results

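The Vκ segments of the Igkv4 family that carry the position numbers 50 to 59 were followed through the Igκ rearrangement repertoire of mouse pre-B cells. Membership was set by name alone, and 9 such segments were found among the 112 Vκ segments counted on each allele: Igkv4-50, Igkv4-53, Igkv4-54, Igkv4-55, Igkv4-56, Igkv4-57, Igkv4-57-1, Igkv4-58 and Igkv4-59. Igkv4-51 falls in the same range of numbers and was not analysed here. The repertoire was read from RNA by VJ-seq, in which cDNA is primed in the constant region Cκ and amplified by ligation-mediated PCR, so that each read comes from a Vκ segment already joined to a Jκ segment. All cells came from C57BL6/Castaneous hybrid mice (B6/Cast), in which sequence differences assign a read to the B6 or the Cast allele. The groups were 5 pre-B-cell clones (3, 4, 8, B52 and E9-3), each kept for 48 h without IL-7 to start rearrangement, a time course of clone 4 with libraries taken 12, 24, 36 and 48 h after IL-7 removal, and a pool. Each clone was grown from a single cell of the bone marrow of female mice of 8 to 12 weeks, with IL-7 on irradiated ST2 feeder cells, and stands for 1 cell of origin. The pool is labelled as cultured pre-B cells, whereas the methods describe bone marrow cells of a 12-week-old female mouse beside the clones, so that its material is not settled. Its labels give no treatment, the methods give no time for a pool, and its place among the 48 h libraries rests on the table it was deposited in. The tables hold Vκ segments only, and the identity of the cells could not be checked against marker genes.

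An Igκ light chain gene is made when the RAG recombinase joins 1 of many Vκ segments to a Jκ segment. RAG recognises a recombination signal beside each segment, which consists of a conserved heptamer and nonamer separated by a spacer. Because the Vκ segments lie in both orientations, those that point against Jκ and Cκ are joined by inversion, and the DNA between the joined segments is kept rather than lost. Vκ4 is the largest Vκ family of the mouse and most of its segments lie in the middle of the locus.

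By the mm10 annotation of GENCODE M21, the 9 segments lie within 263.1 kb (chr6:69438218-69701287), 1021.3 kb from Igkj1 at the near end, and all of them are on the minus strand, opposite to Jκ and Cκ. Of these, 8 are annotated as functional V genes and Igkv4-56 as a pseudogene. The V exons are 303 or 309 bases long, so that read numbers were compared between segments without a correction for length. The B6 sequences are close to each other, with 84.8% to 94.4% identity between V exons over the 36 pairs and a median of 89.6%. Closer relatives lie elsewhere in the family. Igkv4-53 is 97.7% identical to Igkv4-60, with 7 differences, Igkv4-54 is 96.7% identical to Igkv4-61, and Igkv4-59 is 96.0% identical to Igkv4-70. The alignment may have divided the reads of such close relatives between them.

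The ends of 6 segments and their recombination signals are printed to show what RAG is offered at the segments read on both alleles (Igkv4-58, Igkv4-53 and Igkv4-50) and at the 3 most abundant of those read almost only on B6 in the table of pool and clones (Igkv4-59, Igkv4-57 and Igkv4-55). Each run is the B6 sequence of GRCm38.p6 (mm10) on the minus strand, 5′ to 3′, with the last 28 bases of the V exon from the codon of the conserved cysteine in lower case, the heptamer in capitals, the spacer of 12 bases in lower case and the nonamer in capitals.
Igkv4-59 (chr6:69438190-69438245): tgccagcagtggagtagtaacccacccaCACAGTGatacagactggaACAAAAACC
Igkv4-58 (chr6:69500226-69500281): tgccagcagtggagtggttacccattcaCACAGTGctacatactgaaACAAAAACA
Igkv4-57 (chr6:69575947-69576002): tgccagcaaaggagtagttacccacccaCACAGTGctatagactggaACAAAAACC
Igkv4-55 (chr6:69607247-69607302): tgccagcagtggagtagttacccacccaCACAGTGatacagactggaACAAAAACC
Igkv4-53 (chr6:69648796-69648851): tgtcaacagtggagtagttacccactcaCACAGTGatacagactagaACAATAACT
Igkv4-50 (chr6:69700739-69700794): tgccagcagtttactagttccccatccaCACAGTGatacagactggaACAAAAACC

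The signals were searched for within 6 bases of the end of the V exon, on the strand of the segment. A start with CAC was preferred, then the most matches to the heptamer CACAGTG and the nonamer ACAAAAACC. For all 9 segments the place kept lay directly after the V exon. All 9 segments carry the heptamer CACAGTG, which is found at 95 (85.6%) of the 111 counted segments that were annotated. The heptamer CACAGTG together with the nonamer ACAAAAACC is found at 7 of the 9 segments, against 36 (32.4%) of the 111. The other two are Igkv4-58, whose nonamer ACAAAAACA occurs at 4 of the 111 segments, and Igkv4-53, whose nonamer ACAATAACT occurs at no other. The pair of CACAGTG and ACAAAAACC is also found at most of the 21 other Igkv4 segments, so it is not particular to these 9. The spacer ATACAGACTGGA is shared by Igkv4-59, Igkv4-55 and Igkv4-50, and 6 different spacers occur over the 9 segments. On the B6 sequence these 3 carry identical signals, and the Cast signals were not read. Their Cast shares over the 48 h table of pool and clones were 0.204%, 0% and 26.3%, and the part of the signals in these shares was not tested. In the time course the Cast share of Igkv4-59 was 25.4%, above the 17.6% of Igkv4-50.

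The 48 h libraries held 34291 to 320951 reads and the time-course libraries 1174 to 10958, summed over both alleles and all 112 segments. A segment with 3 reads, taken as the smallest number that can be told from 0, makes up 0.000935% of the pool, 0.00875% of clone E9-3 and 0.256% of the time course at 24 h. Where no read was found, the share or level said below to be allowed is that of 3 reads. It lies under the upper end of the Wilson interval. Of the reads of the 48 h libraries, 51.2% to 71.8% were on the B6 allele, with the highest share in clone 4 and the lowest in clone 3. Except for clone 4 at 48 h, of which a second library belongs to the time course, there was 1 library for each condition, so that tests on reads compare libraries and not conditions. Intervals are 95% Wilson intervals, and as the reads carry no molecular identifiers, intervals and detection limits speak for counting error alone.

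Together the 9 segments gave 8.02% of the reads of the pool (interval 7.93 to 8.12). In the clones they gave between 5.52% (clone 3) and 11.7% (clone 8), with 6.01% in E9-3, 7.96% in B52 and 10.9% in 4. Clone 8 thus used them 2.12 times as much as clone 3 (interval 2.06 to 2.17), whereas clone B52 minus the pool was -0.0647 percentage points, with an interval of -0.285 to 0.160. The median segment of the group gave 0.952% of the pool, compared with 0.440% over all 112 segments. Different segments led in different libraries. Igkv4-59 was the most abundant of the 9 in the pool, with 30.2% of their reads, and in clone 8, with 26.6%. Igkv4-50 led in clones 3, 4 and E9-3, with 36.1%, 24.2% and 40.6% of their reads. Igkv4-57 led in clone B52 with 38.8%.

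**Figure D1:**
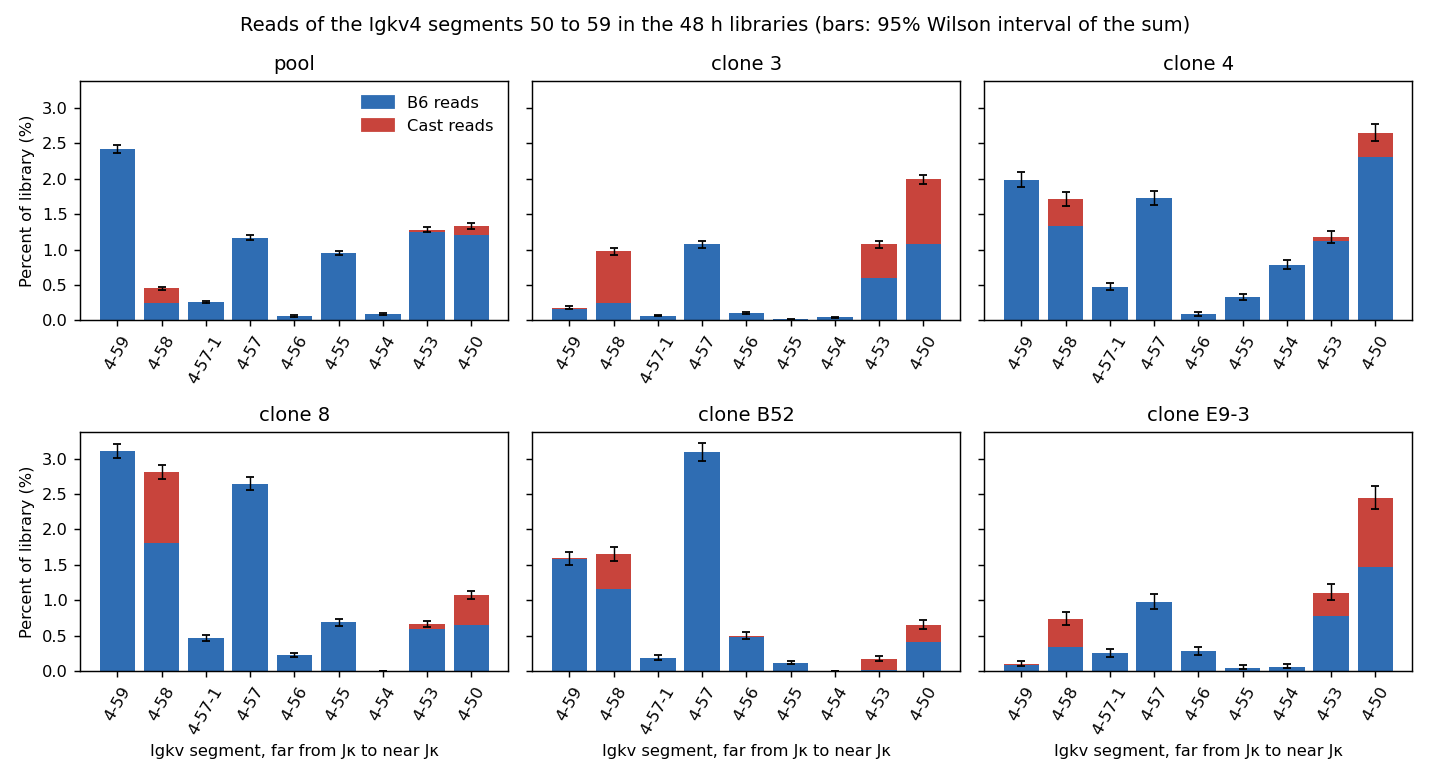
Percent of the reads of each 48 h library on the 9 Igkv4 segments, ordered along the chromosome from far to near Jκ, with B6 reads in blue, Cast reads in red and the 95% Wilson interval of the sum as a bar. Igkv4-59 ranges from 0.0992% in clone E9-3 to 3.11% in clone 8, and Cast reads are visible mainly at Igkv4-58, Igkv4-53 and Igkv4-50.

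Igkv4-57, Igkv4-57-1, Igkv4-56, Igkv4-55, Igkv4-54 and Igkv4-59 each had fewer than 2% of their reads on Cast over the 48 h libraries. These are 6 of the 9 segments, whereas 24.3% of the 103 segments with at least 100 reads fell under this limit, and 7 of the 21 other Igkv4 segments did. With all their reads summed, the B6 share of the 9 was 95.6% in the pool and 61.6%, 92.9%, 87.2%, 88.4% and 71.5% in clones 3, 4, 8, B52 and E9-3. The 9 Igkv4 segments numbered 60 to 72 had 92.0% in the pool and higher shares than the members in each clone, at 82.4%, 98.5%, 97.9%, 93.4% and 81.7%. With over 80% of at least 10 reads on B6 as the criterion, 8 of the 9 were skewed to B6 in the pool, against 35.6% of all segments, and the exception was Igkv4-58. Of the 8 segments with at least 10 reads in each clone, 5 were skewed to B6 in all 5 clones, against 25.8% of all segments. These were Igkv4-59, Igkv4-57-1, Igkv4-57, Igkv4-56 and Igkv4-55. In the second library of clone 4 at 48 h, made for the time course, 2 of these 5 were over 80% on B6 (Igkv4-57 and Igkv4-55), and over all members 5 of 9, against 53.6% of all segments. There 3 of the 6 segments named first were under 2% on Cast, and Igkv4-59, Igkv4-57-1 and Igkv4-56 were not. The authors made the Cast version of the genome by placing Cast polymorphic sites into the B6 assembly, and from such counts a segment that is not rearranged on Cast cannot be told apart from one whose Cast reads were not assigned to it.

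Igkv4-57 (chr6:69575975-69576500) was read in numbers in every library. It had 3751 B6 reads in the pool and 1782, 1116, 3144, 2134 and 336 in clones 3, 4, 8, B52 and E9-3, and 3 Cast reads over these libraries. It gave 1.17% of the pool, and in the clones its percent of the library was 1.08%, 1.73%, 2.64%, 3.09% and 0.980%. It was among the first 3 of the 9 segments in each of the clones.

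Igkv4-55 (chr6:69607275-69607828) and Igkv4-54 (chr6:69631646-69632178) had no Cast read in any library. For Igkv4-55 that was 0 of 4215 reads over the 48 h libraries, which allows a Cast share of up to 0.0712%, and for Igkv4-54 it was 0 of 903 reads, which allows up to 0.332%. Igkv4-55 had 3054 reads in the pool and 31, 214, 819, 80 and 17 in clones 3, 4, 8, B52 and E9-3. At 0.952% of the pool, its level was above that in every clone. Igkv4-54 had 301 reads in the pool, 70 in clone 3, 510 in clone 4 and 22 in clone E9-3. It had none in clones 8 and B52, which allows up to 0.00252% and 0.00434% of those libraries, although clone 8 was read more deeply than clone 4, in which it gave 0.789%.

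Igkv4-57-1 (chr6:69544359-69544907) and the pseudogene Igkv4-56 (chr6:69587295-69587810) were low in the pool, as was Igkv4-54. Igkv4-57-1 had 839 B6 reads in the pool and 111, 306, 553, 131 and 87 in clones 3, 4, 8, B52 and E9-3, and none of these libraries had more than 1 Cast read. Igkv4-56 had 199 B6 reads in the pool and 165, 55, 266, 335 and 97 in the clones, and 8 of its 12 Cast reads were in clone B52. A pseudogene yields no light chain, but its rearranged RNA was read at 0.0620% of the pool and 0.496% of clone B52, and in clone B52 it was above Igkv4-57-1, Igkv4-55 and Igkv4-53.

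Igkv4-59 (chr6:69438218-69438757), the member farthest from Jκ, was abundant in some libraries and rare in others. It had 7773 B6 reads in the pool (2.42% of the library). Of the clones, 8 had 3701 (3.11%), 4 had 1285 (1.99%), B52 had 1091 (1.59%), 3 had 279 and E9-3 had 28. Both alleles together gave 0.177% of clone 3 and 0.0992% of clone E9-3, below all other libraries. It had no Cast read among 12759 reads of the pool and clones 4 and 8 together, which allows up to 0.0235%, and 29 of 1427 (2.03%, interval 1.42 to 2.90) in clones 3, B52 and E9-3, a grouping of libraries made after the counts were seen. In the time-course library of clone 4 at 48 h, however, 30 of its 94 reads were on Cast. In clone E9-3 the share on B6 was 82.4% (interval 66.5 to 91.7), which rests on 34 reads.

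**Figure D2:**
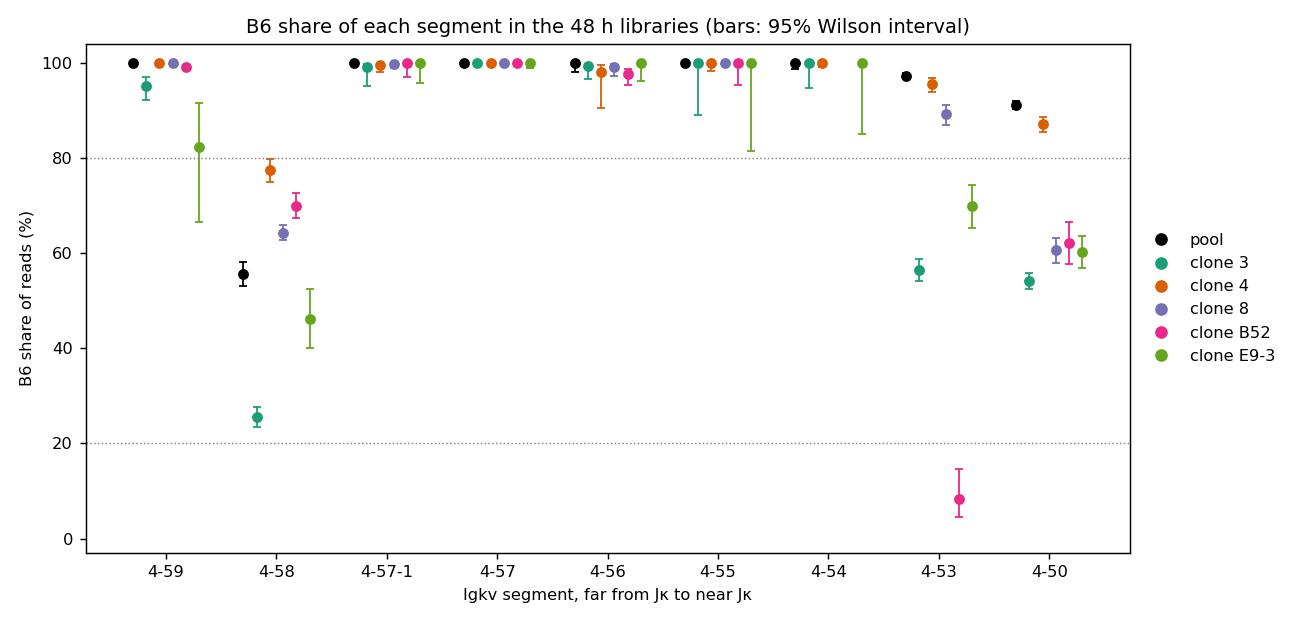
Share of reads on the B6 allele (%) for each segment with at least 10 reads in the pool and the 5 clones at 48 h, with 95% Wilson intervals and dotted lines at the limits for a skew to either allele. Igkv4-57, Igkv4-57-1, Igkv4-56, Igkv4-55 and Igkv4-54 lie near 100% in every library plotted, while Igkv4-53 runs from 8.33% in clone B52 to 97.4% in the pool.

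Igkv4-58, Igkv4-53 and Igkv4-50 were read on both alleles in all 6 libraries, with 42.3%, 15.4% and 26.3% of their 48 h reads on Cast. Igkv4-58 (chr6:69500254-69500786) was the most balanced. In the pool it had 806 B6 and 643 Cast reads, a B6 share of 55.6% (interval 53.1 to 58.2). In the clones the B6 share was 25.6% in 3 (413 and 1203 reads), 46.2% in E9-3 (116 and 135), 64.3% in 8 (2151 and 1193), 70.0% in B52 (799 and 342) and 77.5% in 4 (858 and 249). These intervals did not overlap between the 5 clones, and Igkv4-58 was skewed by over 80% in none of them. The second library of clone 4 gave 40.7% (interval 30.7 to 51.6), which overlaps clone E9-3. Its level was lowest in the pool, at 0.452%, and highest in clone 8, at 2.81%.

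Igkv4-53 (chr6:69648824-69649363) showed the widest range of the B6 share, and it was the only one of the 9 that was skewed to Cast in any 48 h library. The pool had 4011 B6 and 109 Cast reads, a B6 share of 97.4%. Among the clones it ranged from 95.5% in 4 (729 and 34 reads) over 89.3% in 8 (708 and 85), 70.0% in E9-3 (266 and 114) and 56.5% in 3 (1004 and 774) to 8.33% in B52 (10 and 110, interval 4.59 to 14.7). In clone B52, 12.5% of all segments were skewed to Cast. On the B6 allele the 10 reads were 86.4 times fewer, relative to the library, than in the pool (interval 46.5 to 161), while its Cast reads were 4.69 times more frequent (interval 3.60 to 6.11). Over both alleles Igkv4-53 gave 1.07% to 1.18% of clones 3, 4 and E9-3, 0.666% of clone 8 and 0.174% of clone B52.

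Igkv4-50 (chr6:69700767-69701287), the member nearest to Jκ, had 3893 B6 and 377 Cast reads in the pool, a B6 share of 91.2% (interval 90.3 to 92.0). In clone 4 the share was 87.2% (1495 and 219 reads), and in the other clones it was 62.3% in B52 (282 and 171), 60.6% in 8 (774 and 503), 60.3% in E9-3 (505 and 333) and 54.1% in 3 (1785 and 1516). The intervals of clones 8, B52 and E9-3 overlapped, and those of the pool and clone 4 lay above all others without overlap. Its level ran from 0.655% in clone B52 and 1.07% in clone 8 over 1.33% in the pool and 1.99% in clone 3 to 2.44% in clone E9-3 and 2.65% in clone 4. For the 8 segments with at least 10 reads in each clone, the median range of the B6 share over the clones was 9.99 percentage points, compared with 27.6 over all 93 such segments.

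The order of the 9 segments within a library was resolved at most places. In the pool it ran from Igkv4-59 at 2.42% over Igkv4-50, Igkv4-53, Igkv4-57, Igkv4-55, Igkv4-58, Igkv4-57-1 and Igkv4-54 to Igkv4-56, and the intervals of Igkv4-50 (1.33%) and Igkv4-53 (1.28%) were the only neighbours in this order to overlap. In clone 4 these were Igkv4-57 (1.73%) and Igkv4-58 (1.71%). In clone 3 they were Igkv4-57 (1.08%) and Igkv4-53 (1.07%). In clone 8, Igkv4-58 overlapped Igkv4-57 and Igkv4-55 overlapped Igkv4-53, and in clone B52 Igkv4-58 overlapped Igkv4-59 and Igkv4-57-1 overlapped Igkv4-53. In clone E9-3, the 48 h library with the fewest reads, Igkv4-53 overlapped Igkv4-57, Igkv4-56 overlapped Igkv4-57-1, and the order of Igkv4-59, Igkv4-54 and Igkv4-55 at the lower end was not resolved.

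To ask how the use of each segment in a clone departs from the pool, B6 and Cast reads were compared as a percent of the library by two-sided Fisher's exact tests of the reads of both libraries (Benjamini-Hochberg adjustment over all segments with at least 20 reads on that allele). A difference was called at an adjusted p under 0.05 and at least 2-fold. On the B6 allele, 5 of the 9 segments were called in clone 3 (52.5% of all segments). The calls were 3 for clone 4 (51%), 5 for clone 8 (49%), 7 for clone B52 (74.5%) and 3 for clone E9-3 (62.2%). These shares are near that of all segments in clones 3, 8 and B52 and below it for clones 4 and E9-3, and the differences are given for each segment.

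Igkv4-55 was lower than in the pool in 4 of the 5 clones, by 50.9-fold in clone 3 (interval 35.7 to 72.4), 19.2-fold in clone E9-3, 8.22-fold in clone B52 and 2.88-fold in clone 4. In clone 8 its B6 ratio to the pool was 0.723, short of the fold asked for. In clone E9-3 it had 17 reads and reached the read minimum through the pool alone. Igkv4-59 was lower by 29.7-fold in clone E9-3 (interval 20.5 to 43.0) and 14.4-fold in clone 3 (interval 12.8 to 16.2), and its ratio lay between 0.652 and 1.28 in the other clones. With the time-course library of clone 4 the ratio was 0.241, also called lower. Igkv4-54 was at least 37.2-fold lower in clone 8 and at least 21.6-fold lower in clone B52, counted against 3 reads per library, and 2.22-fold lower in clone 3. In clones 8 and B52 it had no read and reached the read minimum through the pool alone. In clone 4 it was 8.41-fold higher (interval 7.29 to 9.69).

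Igkv4-58 was higher on B6 in clone 8 by 7.20-fold (interval 6.64 to 7.80), in clone B52 by 4.602-fold and in clone 4 by 5.28-fold, which was 1.20 with the time-course library and then not called. The pseudogene Igkv4-56 was higher in 3 clones, by 7.82-fold in B52 (interval 6.56 to 9.31), 4.56-fold in E9-3 and 3.61-fold in 8. Igkv4-57 was higher in clones 8 and B52 by 2.26-fold and 2.64-fold. Igkv4-53 was lower in clones 3 and 8 by 2.06-fold and 2.10-fold. In clone B52 it was also called lower, at a ratio of 0.0116, but reached the read minimum through the pool alone. As a percent of the B6 reads, 2 calls in clone 3 fell short of 2-fold. These were Igkv4-53, at 1.18% against 2.18% in the pool, and Igkv4-54, at 0.0825% against 0.163%. Igkv4-50 was lower in clone B52 by 2.97-fold, and Igkv4-57-1 in clone 3 by 3.90-fold. Because all 5 comparisons share the pool, a segment that is unusual in the pool moves all of them in the same direction.

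**Figure D3:**
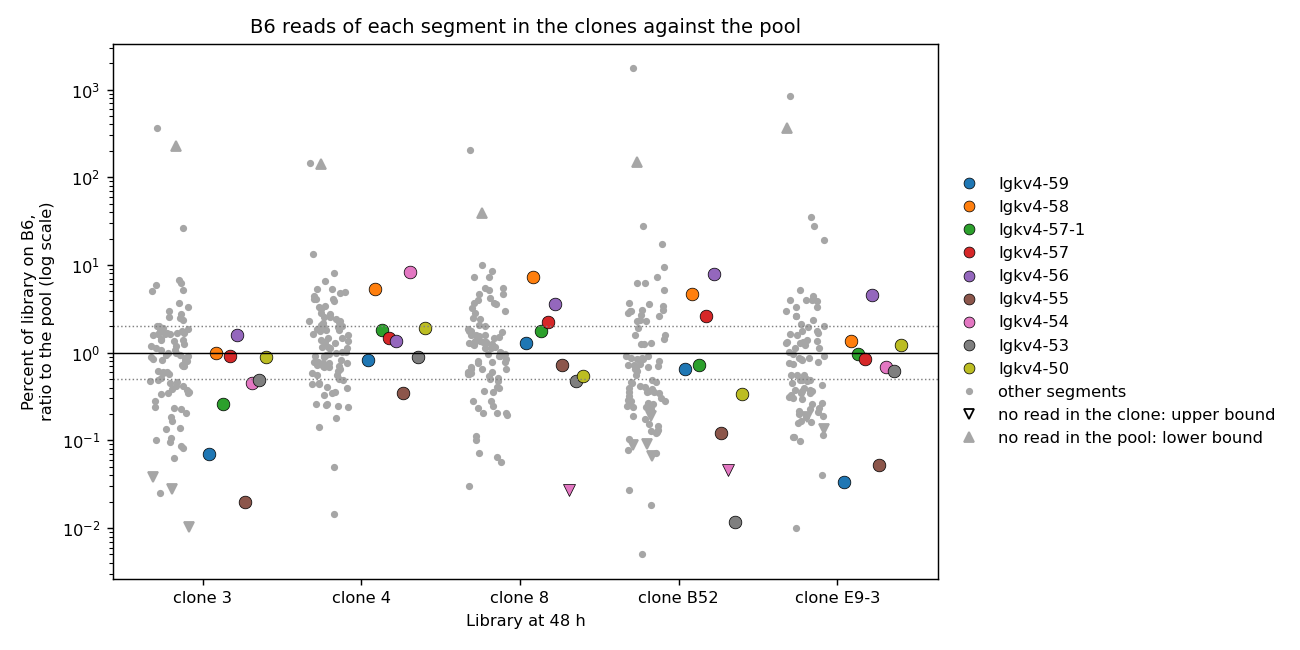
Ratio of the percent of library on the B6 allele between each clone and the pool at 48 h, on a log scale, for the 9 segments (coloured) and all other segments tested (grey), with triangles at the bound where a library had no read and dotted lines at the 2-fold limits. Igkv4-55 lies below the pool in every clone, and Igkv4-53 lies at 0.0116 in clone B52.

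On the Cast allele 3 of the 9 segments, Igkv4-58, Igkv4-53 and Igkv4-50, had enough reads for this comparison, and every call was in the higher direction. All 3 were called in clone 3, where 41.8% of all segments were called higher, in clone 8 (26.7%) and in clone B52 (20.8%). In clone E9-3, 2 were called (29.3%), and in clone 4, 1 was (11%). In clone 3, Cast reads were 13.8-fold more frequent at Igkv4-53 (interval 11.3 to 16.8), 7.79-fold at Igkv4-50 and 3.62-fold at Igkv4-58. In clone E9-3, they were 9.79-fold more frequent at Igkv4-53 and 8.27-fold at Igkv4-50. Over all segments tested on Cast, the median ratio to the pool was between 0.459 (clone B52) and 1.22 (clone 3). The Cast percent of each of these 3 segments was above that of the pool in every clone, but with the time-course library of clone 4 the ratio of Igkv4-53 was 0.806.

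The B6 share was compared in the same way, with a difference of at least 20 percentage points asked for. It was lower than in the pool at 3 of the 9 segments in clone 3 (25% of all segments), at 1 of the 8 with enough reads in clone 8 (9.9%), at 2 of 8 in clone B52 (13.3%) and at 2 of 9 in clone E9-3 (19%). These were Igkv4-50 in all 4 clones, with differences of -37.1 to -28.9 percentage points, Igkv4-53 in clones 3, B52 and E9-3, with differences of -89.0 to -27.4, and Igkv4-58 in clone 3, with -30.1. In clone 4, Igkv4-58 was higher by 21.9 points (interval 18.3 to 25.4), the only call among the 9 (26.5% of all segments). With the other library of clone 4, described next, this difference was -14.9 points.

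The second library of clone 4 at 48 h, made for the time course, gave the spread between libraries of the same clone. It held 10958 reads against 64672. The 9 segments gave 9.57% of it, compared with 10.9% (ratio 0.875, interval 0.823 to 0.931). On the B6 allele Igkv4-59, Igkv4-58 and Igkv4-57-1 were lower by 3.40-fold, 4.41-fold and 2.47-fold, so that 3 of the 9 segments were called lower (20.4% of all segments). In either direction, 32.3% of all segments were called on B6 and 38.1% on Cast. On the Cast allele 1 of the 4 segments with enough reads, Igkv4-59, was called higher (12.7% of all segments), with 30 reads against 0. It reached the read minimum through the time-course library alone, and with a minimum of 50 reads no call was left. The call of Igkv4-58 against the pool does not hold in this library, where its B6 ratio was 1.20, and those of Igkv4-55 and Igkv4-54 do, with ratios of 0.201 in place of 0.348 and 4.67 in place of 8.41. Against the pool 3 more segments were called on B6 in this library, Igkv4-59 lower (ratio 0.241), Igkv4-57 higher (2.32) and Igkv4-50 higher (2.41).

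The B6 share was lower in the time-course library at 4 of the 9 segments, against 7.29% of all segments. Igkv4-59 had 64 B6 and 30 Cast reads there (68.1%, interval 58.1 to 76.6), and 1285 and 0 in the other library, a difference of -31.9 percentage points (adjusted p = 7.35e-36, Fisher's exact test between the libraries). Igkv4-57-1 had 21 and 10 reads (67.7%) against 306 and 1. Igkv4-58 had 33 and 48 (40.7%) against 858 and 249 (77.5%), which turned its B6 share from above to below that of the pool. Igkv4-56 had 13 and 4 (76.5%) against 55 and 1. At Igkv4-57, Igkv4-55, Igkv4-54, Igkv4-53 and Igkv4-50, the intervals of both libraries overlapped. Over all 4 time points, Igkv4-59 had 45 Cast reads of 177 (25.4%, interval 19.6 to 32.3) and Igkv4-57-1 13 of 58 (22.4%), whereas Igkv4-57 had 0 of 651, which allows up to 0.461%. The Cast counts of Igkv4-59, Igkv4-57-1 and Igkv4-56 thus differed between the tables of the same clone. The methods give more than one read length and do not say which libraries had which, and the part of read length in this difference was not tested.

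**Figure D4:**
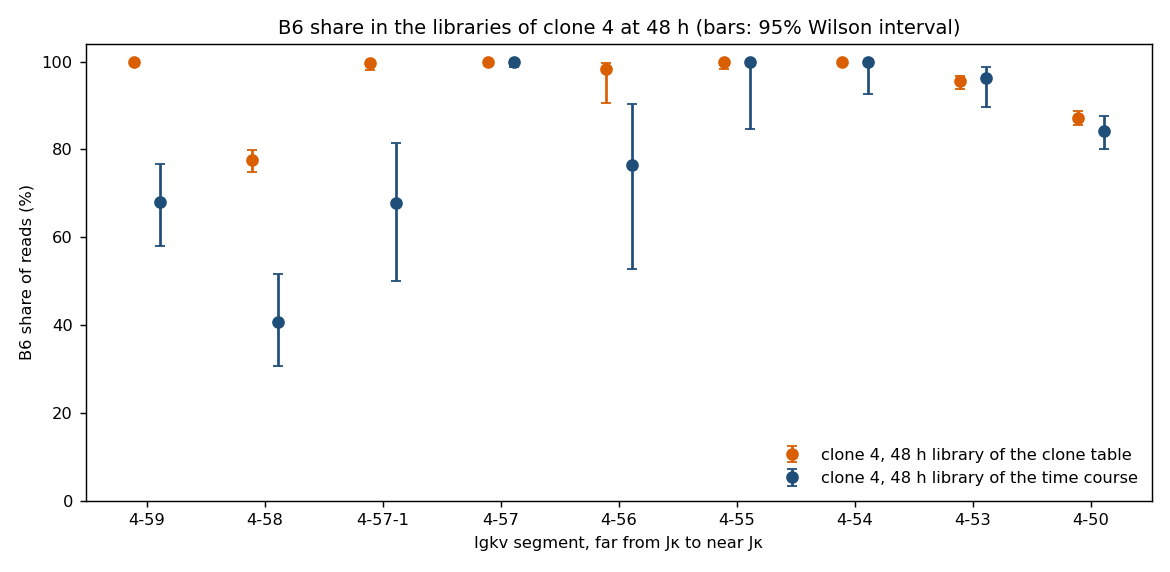
Share of reads on the B6 allele (%) of each segment in the libraries of clone 4 at 48 h, from the clone table (orange) and from the time course (blue), with 95% Wilson intervals. The intervals are apart at Igkv4-59, Igkv4-58, Igkv4-57-1 and Igkv4-56 and overlap at the other segments.

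To follow the order in which segments are rearranged, clone 4 was read at 12, 24, 36 and 48 h. The 9 segments gave 10.7%, 12.1%, 9.93% and 9.57% of the reads at these times, from 185, 142, 704 and 1049 reads, and the ratio of 48 to 12 h was 0.899 (interval 0.775 to 1.04, p = 0.163 by Fisher's exact test on the reads). At 12 h, however, Igkv19-93 alone gave 58.95% of the library, and 31.9%, 14.9% and 8.94% at the later times. Without Igkv19-93 in the total, the 9 segments gave 26.0%, 17.8%, 11.7% and 10.5% of the reads at the 4 times, a ratio of 0.405 between 48 and 12 h (interval 0.354 to 0.465). The ratio pointed down under both totals, but with all segments in the total its interval included no change. A fall was resolved only without Igkv19-93.

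Igkv4-57 was the leading segment of the 9 at the start. Its 97, 62, 195 and 297 reads at 12, 24, 36 and 48 h were all on B6, which is 5.58%, 5.28%, 2.75% and 2.71% of the library. On B6 it fell 2.06-fold between 12 and 48 h (interval 1.65 to 2.58, adjusted p = 1.80e-08, Fisher's exact test). Without Igkv19-93 in the total, it gave 13.6% of the reads at 12 h and 2.98% at 48 h.

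Igkv4-50, the member nearest to Jκ, moved the other way. At 12, 24, 36 and 48 h its B6 reads numbered 5, 16, 230 and 320, and its Cast reads 1, 5, 56 and 60. Together these were 0.345%, 1.79%, 4.03% and 3.47% of the library. On B6 it rose 4.74-fold between 12 and 24 h (interval 1.74 to 12.9), 1 of the 5 segments tested (35.3% of all segments), and 2.38-fold between 24 and 36 h (interval 1.44 to 3.94), 1 of 8 (17.5%). At the later step it reached the read minimum through the 36 h library alone. Without Igkv19-93 in the total the steps were smaller, with 0.842%, 2.63% and 4.74% of the reads of both alleles at 12, 24 and 36 h, and the second was under 2-fold. Between 12 and 48 h it rose 10.1-fold on B6 (interval 4.20 to 24.5, adjusted p = 5.06e-14, Fisher's exact test), having reached the read minimum through the 48 h library alone, and without Igkv19-93 in the total the ratio over both alleles was 4.53 (interval 2.03 to 10.1). On Cast it had 1 read at 12 h and 60 at 48 h. It was the only one of the 3 segments tested to be called (45% of all segments), but it reached the read minimum through the 48 h library alone, and as a percent of the Cast reads it was not called. From 24 h on it was read at 76.2%, 80.4% and 84.2% on B6, with overlapping intervals.

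Between 12 and 48 h, 4 of the 8 segments with enough B6 reads fell, against 11.5% of all segments, and Igkv4-50 was the only one that rose, against 59%. Of the 61 segments tested, 35 had under 3 B6 reads at 12 h and entered through the deeper 48 h library, and these hold 27 of the 36 that rose. All 8 of the Igkv4 segments tested had at least 3 reads at 12 h, and of the 26 such segments 9 rose and 7 fell. Beside Igkv4-57, those that fell were Igkv4-58 by 3.06-fold, Igkv4-54 by 2.63-fold and Igkv4-59 by 2.46-fold. In the clone table, however, the 48 h library of clone 4 had 1.33% of its reads on B6 for Igkv4-58 and 1.99% for Igkv4-59. These lie above the 0.921% and 1.44% at 12 h, so that the direction of both turns with the library. Igkv4-54 had 0.789% in that library against 1.15% at 12 h, a fall short of the 2-fold asked for. For Igkv4-57 the values were 1.73% and 5.58%, a larger fall than in the time course. Without Igkv19-93 in the total, the ratio of 48 to 12 h over both alleles went from 0.380 to 0.172 for Igkv4-54, from 0.642 to 0.289 for Igkv4-58 and from 0.532 to 0.240 for Igkv4-59. Igkv4-54, absent from clones 8 and B52, had 20, 14, 40 and 48 reads, all on B6, or 1.15%, 1.19%, 0.564% and 0.438% of the library. Igkv4-53 had 6, 9, 31 and 80 reads, of which 3 at 48 h were on Cast, and its B6 ratio of 2.03 between 48 and 12 h had an interval of 0.888 to 4.66. Over both alleles the ratio of Igkv4-53 was 2.11, and 0.953 without Igkv19-93 in the total, so that its direction turned. Igkv4-55, with 4, 1, 22 and 21 reads, and Igkv4-56, with none at 12 h and 17 at 48 h, were too sparse to follow.

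The B6 share of Igkv4-58 fell from 80% at 12 h (16 and 4 reads, interval 58.4 to 91.9) to 40.7% at 48 h, a difference of -39.3 percentage points (adjusted p = 0.0164, Fisher's exact test), the only 1 of the 8 segments tested that was lower (6.98% of all segments). It rests on the time-course library, since the clone table gave 77.5% for clone 4 at 48 h, inside the interval at 12 h. At Igkv4-59 the share was 89.3%, 90.9%, 75% and 68.1% at the 4 times, a difference of -21.2 points between 12 and 48 h that did not pass after adjustment (adjusted p = 0.116, Fisher's exact test). Between 36 and 48 h none of the 9 segments was called on B6 (5.8% of all segments), and 1, Igkv4-53, had an unadjusted p under 0.05. All calls of the 9 segments on B6 between successive times lay before 36 h.

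**Figure D5:**
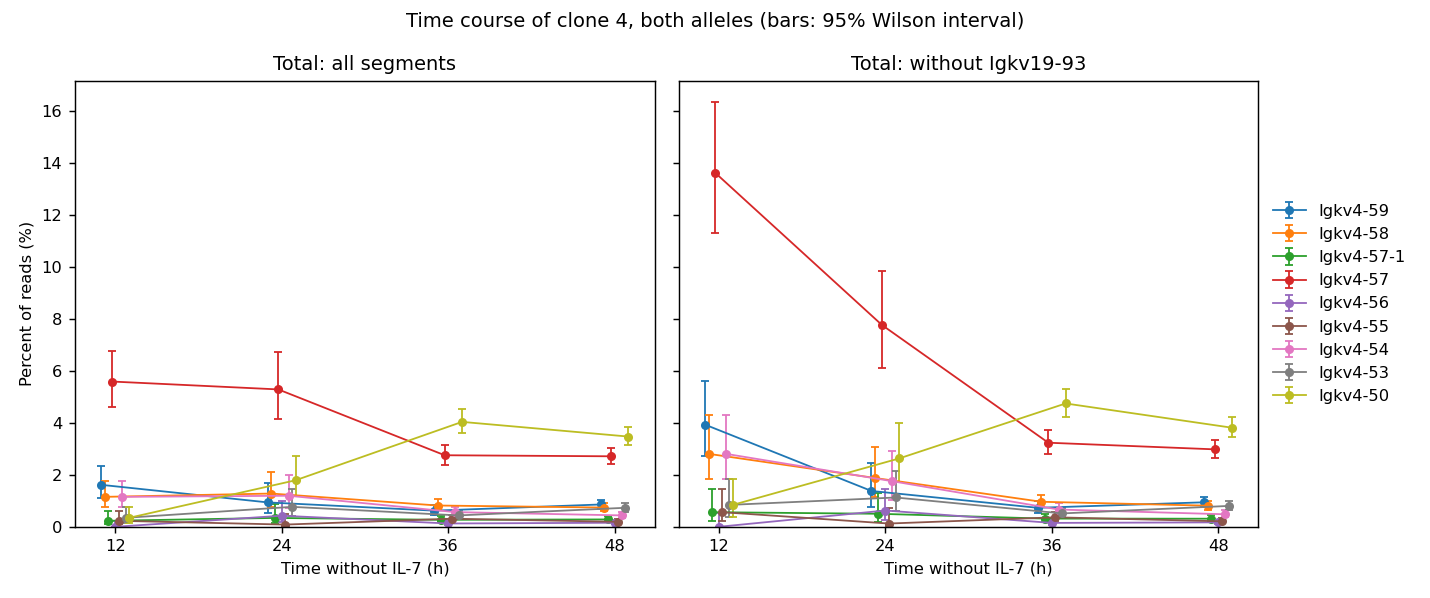
Percent of reads of each segment, over both alleles, against the time without IL-7 (h) in clone 4, with all segments in the total on the left and without Igkv19-93 on the right, with 95% Wilson intervals. Igkv4-57 is highest at 12 h, at 5.58% of all reads, and Igkv4-50 is highest at 36 and 48 h, at 4.03% and 3.47%.

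Between the first and the last member of the group lies 1 other counted segment, the pseudogene Igkv4-60, between Igkv4-59 and Igkv4-58. It was read on B6 only, with 215 reads in the pool and 181, 228, 581, 73 and 20 in clones 3, 4, 8, B52 and E9-3, or 0.0583% to 0.488% of the library. Igkv4-53, whose V exon is 97.7% identical to it, had reads on both alleles in the same libraries, and in clone B52 Igkv4-60 had 73 B6 reads and Igkv4-53 had 10.

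Among the 87 segments outside the group with at least 3 reads in each 48 h library, the levels of Igkv4-71, Igkv4-73 and Igkv4-86 followed the summed level of the 9 segments most closely, with Pearson's r of 0.979, 0.973 and 0.972 on the log2 scale over the 6 libraries. This is a description over 6 libraries that share the same totals. Igkv4-86 gave 0.946% of clone 8 and 0.472% of clone 4, and 0.0992% and 0.102% of clones E9-3 and 3. The other 21 Igkv4 segments together gave 6.82% of the pool and 4.68%, 10.8%, 14.3%, 10.0% and 7.56% of clones 3, 4, 8, B52 and E9-3. The 9 segments gave more reads than the rest of their family in the pool and clone 3, about as many in clone 4, and fewer in clones 8, B52 and E9-3.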

How the data were processed

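Igκ rearrangement was measured by VJ-seq in 10 libraries, 1 each for the pool, 5 clones and 4 time points of clone 4. The deposited tables hold raw counts of reads for each Vκ segment on each allele, which the authors obtained by trimming, by Bowtie2 alignment against a combined B6 and Cast genome (mm10 per the labels) and by HTSeq. Program versions are not given in the sources used here, and no column was normalized. Percents, Wilson intervals and Fisher's exact tests came from SciPy 1.17.1 and pandas 2.3.3 under Python 3.11.15 (NumPy 2.4.6), V exon identity from Biopython 1.88, and figures from matplotlib 3.10.9. No count model was fitted, as only clone 4 at 48 h had a second library. The level test was tested on simulated counts: for clone 3 against the pool it called 24 of 24 segments changed 4-fold and 0 of 72 unchanged ones. At the depth of the time course it recovered 4 of 5 (24 against 12 h, with 1 of 9 unchanged ones called), 10 of 15 (36 against 24 h) and 3 of 5 (48 against 12 h). The simulated reads held counting error alone, so that these numbers do not cover the spread between libraries. Between the libraries of clone 4 at 48 h, 32.3% of all segments were called on B6 in either direction. The segments and lists were chosen with earlier results of these data known. Named besides the 9 segments were counted segments lying between them, the 3 whose level followed their sum most closely, Igkv19-93 where leaving it out moves a value, and closest relatives in sequence, which were named after identities were computed. The alternatives varied the total, the members, the read minimum, the size of difference asked for, the allele as denominator and the library of clone 4. The nuclear RNA and ATAC-seq samples were not analysed here.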

Additional observations from a re-analysis of the deposited data

Results flagged for a closer look

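The 5 clones were examined for a single clone that lay far from the other four in the level or the B6 share of a segment, by the gap to its neighbour relative to the whole range (Dixon's limit of 0.71 for 5 values). Of 19 such sets of values 3 passed, where chance gives about 1 in 20.

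Igkv4-54 gave 0.789% of the library in clone 4, whereas the next clone, E9-3, had 0.0642% and clones 8 and B52 had none. The time-course library of clone 4 at 48 h gave 0.438%, again above every other clone. Igkv4-50 had a B6 share of 87.2% in clone 4, and the next clone, B52, had 62.3%. The time-course library of clone 4 gave 84.2%. Igkv4-59 had a B6 share of 82.4% in clone E9-3, and the next, clone 3, had 95.2%. This rests on 34 reads. The Cast counts of this segment also differed between the libraries of clone 4.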

How the results depend on the processing

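No paired analysis was possible because each group compared had a single library of rearranged reads under its label, and the groups share fewer than 2 replicate numbers.

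Of 955 values of single segments between libraries under an alternative, 883 kept their direction and call, 26 lost the call, 36 gained it and 10 changed direction. One of those 10 had been called: with the time-course library of clone 4 the B6 share of Igkv4-58 was below the pool, at -14.9 percentage points. The other nine were not called on either side. With the same library the ratio to the pool was 0.733 for Igkv4-57-1 on B6 and 0.806 for Igkv4-53 on Cast. With the percent of the same allele, ratios on B6 were 1.11 for Igkv4-58 and 1.03 for Igkv4-57 in clone 3, 1.04 for Igkv4-57-1 in clone E9-3 and 1.00 for Igkv4-57 at 24 against 12 h. With odds relative to the library, the ln odds ratio was 0.121 for Igkv4-50 at 24 against 12 h, and for Igkv4-53 1.01 at 48 against 12 h and -0.215 between the libraries of clone 4.

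The ratio of the summed level of clone 8 to clone 3 was 2.17 without Igkv19-93 in the total and 2.01 without the 3 most abundant segments. Without Igkv4-59 the highest clone was clone 4, with a ratio of 1.67 to clone 3. The ratio of 48 to 12 h was 0.405 and 0.357 under the same changes of the total. The B6 share of the 9 segments together was 95.6% in the pool, 61.6% in clone 3 and 92.9% in clone 4. As an unweighted mean it was 93.8%, 81.1% and 95.4%, without Igkv4-59 93.7%, 60.5% and 91.3%, and over Igkv4-50, Igkv4-53 and Igkv4-58 only, chosen after seeing the data, 88.5%, 47.8% and 86.0%. With segments of under 3 reads on either allele left out it was 94.96% in the pool and 92.1% in clone 4. With at least 50 reads, 3 segments in place of 5 were over 80% on B6 in every clone, since fewer segments reach that minimum, and the change of clones tried, chosen after seeing the data, gave 6 in clones 4 and 8 and 5 in clones 3, B52 and E9-3.

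Counts of called segments that the report gives, of either direction, moved as follows, and where no cause is given it was not tested. Asking for 3-fold, by construction, left 3 on B6 in clone 3, 3 in clone 8 and 2 between 12 and 48 h, 0 between 24 and 36 h, and on Cast 0 in clone 4 and 1 in clone B52. Asking for 1.5-fold gave 5 on B6 in clone 4, 2 between 24 and 36 h and 7 between the libraries of clone 4, and on Cast 3 in clone 4 and 2 between its libraries. Asking for 30 percentage points left 0, 1 and 1 in clones 4, B52 and E9-3. Odds relative to the library gave 2, 2 and 4 in clones 4, 8 and B52. The percent of the same allele gave 3 on B6 in clone 3, and on Cast 3 in clone 4 and 0 between 12 and 48 h. A minimum of 50 reads gave 0 on B6 between 12 and 24 h and 2 between 24 and 36 h, and on Cast 0 between the libraries of clone 4, where a minimum of 10 reads gave 2. The time-course library of clone 4 gave 5 on B6, 3 on Cast and 3 in B6 share against the pool. The time course is limited by its depth, with 1737 reads at 12 h and 1174 at 24 h.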
